A study of Mus musculus with 6 samples.

Results

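The integrin subunit genes examined were chosen by name and matched on the gene names of the deposited annotation: 10 genes of the 54532 in the count table, out of an integrin family of 26 genes. A set of 7 encodes receptor subunits for collagen (Itga1, Itga11), fibronectin (Itga5) and vitronectin and related matrix proteins (Itgav, Itgb3, Itgb5), together with Itgb1, the common partner of Itga1, Itga11 and Itga5. The remaining 3 encode leukocyte subunits, namely Itgam (CD11b), Itgax (CD11c) and their partner Itgb2 (CD18). All 10 were matched and all 10 passed the filter on low counts.

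The study asked how a low dose of nickel acts on osteogenic differentiation. Primary wild-type mouse bone marrow mesenchymal stromal cells (BMSCs), plastic-adherent marrow cells that can become osteoblasts, were kept for 7 days in osteogenic medium (dexamethasone, ascorbic acid and β-glycerophosphate, which all libraries shared). The control group had no added nickel and the Ni group received 0.1 μM NiCl2, with 3 RNA-seq libraries in each. The age, sex and number of the donor mice, and whether marrow was pooled, are not given in the sources used here, so the p-values measure the spread between these libraries, which may be technical.

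Integrins are transmembrane receptors made of one α and one β chain, and the pair determines what the cell binds. The β1 and αv receptors attach stromal cells and osteoblasts to collagen, fibronectin and other matrix proteins and pass signals to the actin cytoskeleton through talin, kindlin and kinases at the cytoplasmic tails. The β2 receptors are made by leukocytes: αM with β2 is complement receptor 3 of macrophages and neutrophils, and αX with β2 is known from dendritic cells and some macrophages.

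The libraries held 16101033 to 18642504 counts. CPM values below are counts scaled to library size after TMM normalization, and FPKM are the deposited values per gene length. Of 14624 genes tested, 0 passed an adjusted p of 0.05 (0% of genes) in edgeR's quasi-likelihood test, adjusted by the Benjamini-Hochberg method. At an unadjusted p under 0.05 there were 1963 (13.4%). DESeq2 called 257 of the 14065 genes to which it gave an adjusted p (1.83%). The median log2 fold change over all genes tested was −0.01. For several integrins control replicate 3 lay with the Ni libraries and apart from control replicates 1 and 2. The counts of calls, and each of the 10 genes, are therefore given with and without it. Because it was singled out from these same values, leaving it out tends to enlarge the differences of those genes and shrink their spread. Adjusted p-values without it are thus a description and no independent support. The labelled cell type was checked against markers: 10 of 11 stromal markers and all 7 osteoblast markers averaged at least 1 CPM, but so did all 14 macrophage markers, led by Lyz2. All 5 endothelial markers also did, at a lower sum of 45.0 to 74.4 CPM in controls and 43.0 to 47.0 CPM in Ni. The cultures therefore held macrophage transcripts beside stromal ones, and every integrin level is that of the mixture.

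Where each gene lies and how far its reads can be told from those of other genes sets the limit on its level. In GRCm38, the build of the submitters' processing notes, Itgb2 lies at chr10:77530252-77565708, Itgb1 at chr8:128685654-128733200, Itgb5 at chr16:33829665-33949338, Itgav at chr2:83724397-83806916, Itgb3 at chr11:104608000-104670476, Itga11 at chr9:62677826-62783982, Itga5 at chr15:103344286-103366763 and Itga1 at chr13:114953096-115101964. Itgam (chr7:128062640-128118491) and Itgax (chr7:128129547-128150657) are neighbours on the same strand of chromosome 7. Itgam shared 68.7% of its exon bases with the gene model Gm49368 on the same strand, leaving 1574 bases of its own, of which 75.3% lie in one block at its 3′ end (chr7:128117306-128118491). The deposited tables gave Itgam 4000 to 6648 counts per library and Gm49368 3 to 6. The rule used for reads on shared exons is not stated, so the level of Itgam is uncertain, whereas the comparison between groups uses the same rule in every library. Itgb5 shared 7.25% of its 50-base stretches with the pseudogene Gm38317, listed at 27 to 39 counts.

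Itgax shared 8.02% of its 50-base stretches with its paralog Itgad, the αD subunit. The longest identical run, shown because a read inside it cannot be assigned to either gene from its sequence, is 188 coding bases from exons 11 to 13 of Itgax (spliced, plus strand, chr7:128135612-128136062 in GRCm38):
Itgax and Itgad: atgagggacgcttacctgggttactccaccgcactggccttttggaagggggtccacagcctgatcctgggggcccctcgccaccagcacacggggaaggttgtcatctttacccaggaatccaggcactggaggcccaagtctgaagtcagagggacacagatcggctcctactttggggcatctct

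Promoter sequences were compared because Itgam is a textbook target of PU.1, the transcription factor of myeloid cells that binds a GAGGAA core. RefSeq entries (GRCm38.p6) were matched for 8 of the 10 genes, not for Itgb2 and Itgb3, and the 100 bases before the annotated start were searched for GAGGAA on both strands (read as TTCCTC on the other). The Itgam and Itgax sequences are shown as the pair of neighbouring leukocyte genes and Itga11 as the stromal subunit with the largest difference, each 5′ to 3′ on the plus strand with matches in capitals.
Itgam, chr7:128062540-128062639: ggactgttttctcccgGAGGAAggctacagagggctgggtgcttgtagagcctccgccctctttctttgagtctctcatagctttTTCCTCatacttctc
Itgax, chr7:128129450-128129549: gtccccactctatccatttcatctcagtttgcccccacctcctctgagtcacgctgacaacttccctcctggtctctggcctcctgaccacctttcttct
Itga11, chr9:62677755-62677854: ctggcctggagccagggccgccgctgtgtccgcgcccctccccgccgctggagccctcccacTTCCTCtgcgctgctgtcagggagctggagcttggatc
Itgam held 2 matches, beginning 84 and 15 bases before the start, and Itga11 held 1, beginning 38 bases before it. Itgav and Itgb1 also held a match each, so that 4 of the 8 sequences did, whereas Itgax, Itga1, Itga5 and Itgb5 held none. Of all 32851 promoter entries, 9.82% held at least 1 match in the same window. A match is a run of letters and not a measured binding site.

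On the FPKM scale, which is the one on which genes can be compared, the 10 transcripts spanned a wide range. Averaged over the 6 libraries Itgb2 (303.7 FPKM) and Itgb1 (285.8 FPKM) were the most abundant, and their ranges of 230 to 438 and 230 to 320 FPKM overlapped. Itgb2 was above Itgb1 in 2 libraries, control replicates 1 and 2, and below it in the other 4. Itgb5 (92.4 FPKM), Itgam (59.9 FPKM), Itga11 (31.6 FPKM), Itga5 (25.6 FPKM), Itgav (15.8 FPKM), Itga1 (2.19 FPKM), Itgb3 (1.37 FPKM) and Itgax (0.721 FPKM) followed. The ranges of neighbours in this order overlapped for Itgb2 and Itgb1, for Itga11 and Itga5, and for Itgb3 and Itgax, and were apart for the other pairs. The deposited gene length counts every annotated exon, which was 18599 bases for Itga1 against 10967 in its principal transcript and 10744 against 7054 for Itgav, so that these FPKM values are lower than they would be per main transcript.

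**Figure D1:**
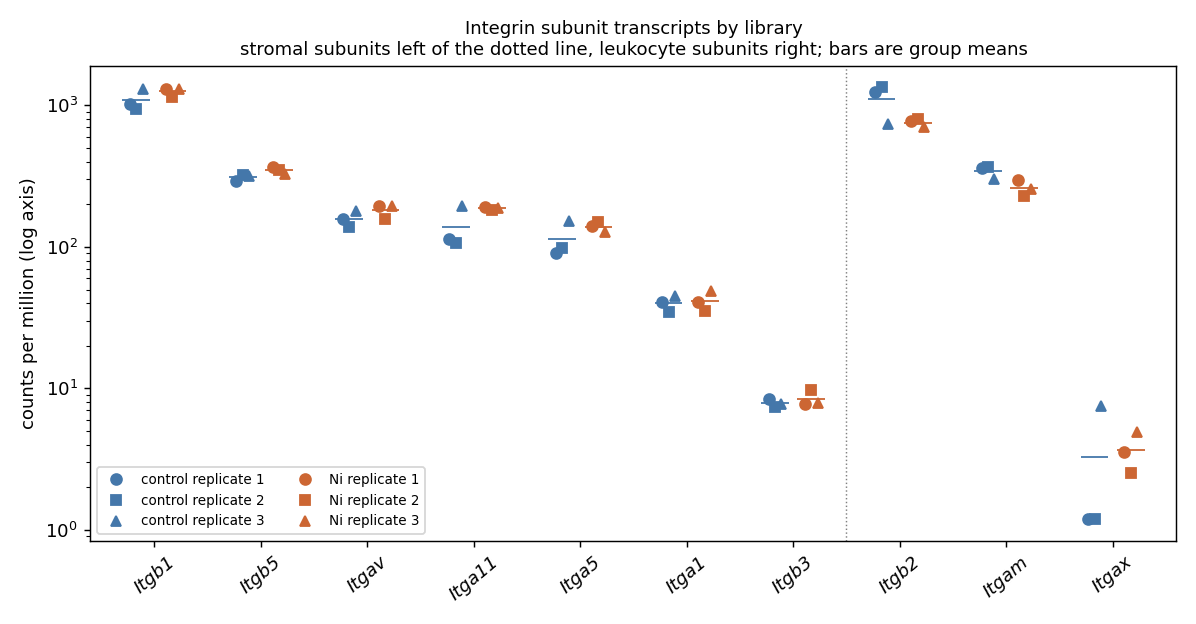
CPM (log axis) of the 7 stromal subunits, left of the dotted line, and the 3 leukocyte subunits, right of it, in each of the 3 control (blue) and 3 Ni (orange) libraries, with group means as bars. Control replicate 3 (blue triangle) sits with the Ni libraries for Itgb1, Itga11, Itga5 and Itgb2, and is the highest library for Itgax.

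Among the genes that passed the filter on low counts, none of the 10 reached an adjusted p under 0.05 with all 6 libraries, by edgeR or by DESeq2. At an unadjusted p under 0.05 there were 2 of 10 (13.4% of all genes tested), Itgam and Itgb2, both lower in the Ni libraries. Over all genes tested, 5.83% were lower in Ni at that p. All 7 stromal subunits had log2 fold changes above 0 (median 0.19), as did 48.1% of all genes tested. The 3 leukocyte subunits had a median of −0.40, with Itgam and Itgb2 negative and Itgax positive. In bulk RNA, fewer cells of a type and less RNA per cell cannot be told apart, and this holds for each difference below.

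Itgb2 encodes the β chain common to the leukocyte receptors. It was at 1240, 1344 and 737 CPM in control replicates 1, 2 and 3 and at 772, 797 and 703 CPM in Ni replicates 1, 2 and 3. Control replicates 1 and 2 were far above the other 4 libraries, and control replicate 3 lay within the Ni range, so the groups overlapped. Control libraries averaged 1107 ± 324 CPM (SD, n = 3) and Ni libraries 757 ± 48.5 CPM (SD, n = 3), a log2 fold change of −0.55 with a standard error of 0.20 (unadjusted p 0.0231, adjusted p 0.334 by edgeR's quasi-likelihood test). Without control replicate 3 the log2 fold change was −0.77 with an adjusted p of 0.000235. Leaving out control replicate 1 or control replicate 2 instead gave −0.46 (adjusted p 0.772) and −0.38 (adjusted p 0.831), all by edgeR.

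Itgam encodes αM, the chain that makes complement receptor 3 with β2. Its level was 363, 369 and 300.5 CPM in the controls and 296, 230 and 258 CPM in the Ni libraries. All 3 Ni libraries lay below all 3 controls, although the gap between control replicate 3 and Ni replicate 1 was narrow. A full separation with the Ni libraries lower was seen in 6.71% of all genes tested, and the exact two-sided permutation test gave p = 0.1, the smallest that 3 against 3 libraries allow. The log2 fold change was −0.40 with a standard error of 0.13 (edgeR, unadjusted p 0.0111, adjusted p 0.306), and −0.48 without control replicate 3 (adjusted p 0.00838).

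Itgax encodes αX, the other partner of β2 in this set, and was scarce. It was at 1.20, 1.20 and 7.49 CPM in the controls, from 22, 19 and 125 counts. In the Ni libraries it was at 3.58, 2.53 and 4.91 CPM, from 66, 44 and 89 counts. Control replicate 3 was thus the highest library of all and the other controls the lowest, and the log2 fold change of 0.16 had a standard error of 0.71. Its paralog Itgad, which shares the sequence printed above, was likewise highest in control replicate 3, at 0.659 CPM against 0.276 CPM or less elsewhere. Without control replicate 3 the log2 fold change of Itgax was 1.62 (adjusted p 0.0102), in the direction opposite to that of Itgam and Itgb2, whereas it was −0.24 and −0.23 without control replicate 1 or 2 and −0.10 without Ni replicate 3.

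The levels of leukocyte markers stand beside these values. The 14 macrophage markers summed to 25939 to 30945 CPM in controls and 26147 to 26842 CPM in Ni libraries, with no marker at 0. Their log2 fold changes had a median of −0.15, and 3 of 14 had an unadjusted p under 0.05, all lower in Ni (5.83% of all genes tested), namely Fcer1g (−0.45), Tyrobp (−0.45) and Ptprc (−0.36). With control replicate 3 left out, 4 of the 14 passed an adjusted p of 0.05, against 15.2% of all genes, with Fcer1g, Ptprc and Adgre1 lower and Mrc1 higher in Ni. Csf1r, the receptor that macrophages need to survive, had a log2 fold change of 0.01, whereas 10 of the 14 markers were below 0. Hmgxb3 on the opposite strand overlaps 15.1% of its exon bases, and the strand setting is not given, so the level of Csf1r is uncertain. The ratio of Itgam to Csf1r on the FPKM scale was 0.2004, 0.190 and 0.152 in the controls and 0.150, 0.121 and 0.138 in the Ni libraries. These did not overlap (exact two-sided permutation test, p = 0.1, the smallest possible). Itgam by itself was also separated, as were 6.71% of all genes tested with Ni lower, so the ratio to this flat marker adds little. For Itgb2 over Csf1r the ratios overlapped, at 0.612 to 1.14 in controls and 0.616 to 0.688 in Ni (exact two-sided permutation test, p = 0.4). The ratio of Itgam to Ptprc (CD45), a marker of blood cells in general, overlapped between groups, at 2.80 to 3.46 in controls and 2.70 to 3.39 in Ni. The part of cell number in the levels of Itgam and Itgb2 was not tested.

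Markers of neutrophils, lymphocytes and dendritic cells were low, whereas the megakaryocyte and osteoclast lists had larger sums. Of 9 neutrophil markers 8 averaged under 1 CPM over the 6 libraries, with S100a9, Ngp, Ltf and Retnlg at 0 in every library, and their summed level was 1.53 to 3.24 CPM in controls and 2.04 to 2.24 CPM in Ni. All 6 lymphocyte markers were under 1 CPM, with Cd3e and Ms4a1 among those at 0, and summed to at most 0.491 CPM in any library. Of 6 dendritic cell markers only Zbtb46 averaged at least 1 CPM, Cd209a was at 0, and the sum was 5.51 to 5.81 CPM in controls and 5.90 to 7.92 CPM in Ni. Of 6 megakaryocyte markers only Pf4 averaged at least 1 CPM, with Gp6 among those at 0, and the sum of 67.7 to 148 CPM in controls enclosed that of 102 to 125 CPM in Ni. The 8 osteoclast markers summed to 656 to 1337 CPM in controls and 610 to 685 CPM in Ni, led by Acp5, which like Itgb2 was high in control replicates 1 and 2 (1012 and 1188 CPM) and not in control replicate 3 (416 CPM). Mmp9, Ctsk and Atp6v0d2 did not share that pattern, and Calcr, Oscar, Dcstamp and Ocstamp were all under 1 CPM. The part of these markers in the integrin levels was not tested.

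**Figure D2:**
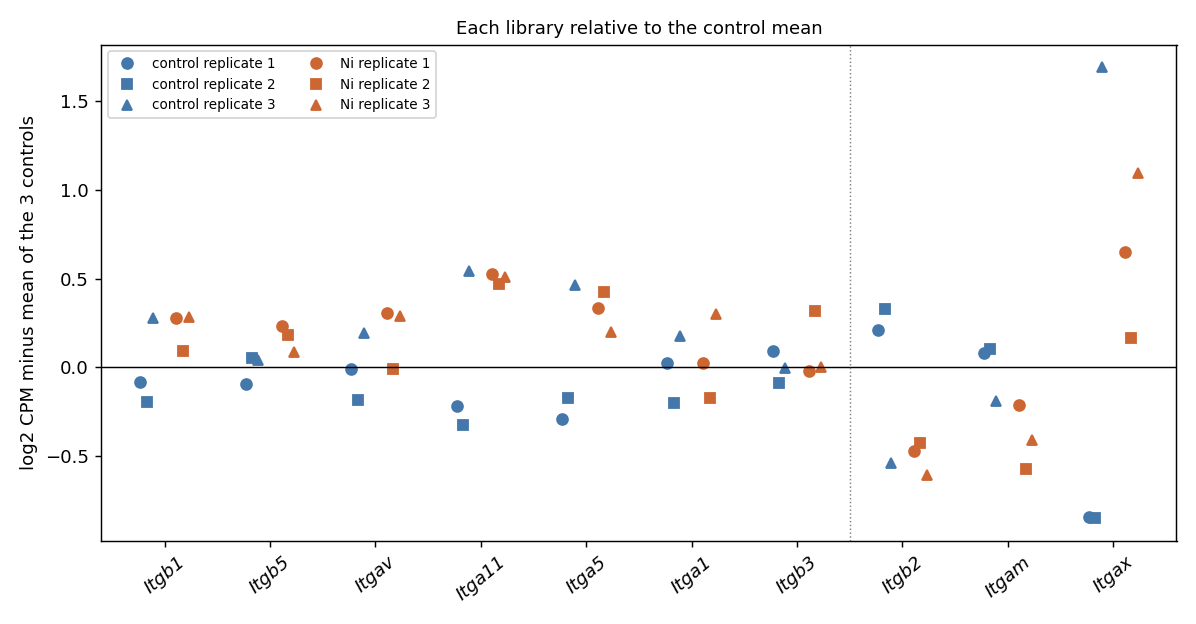
Log2 CPM of each library minus the mean of the 3 controls for the 10 genes, stromal subunits left of the dotted line and leukocyte subunits right of it. Points above 0 are higher than the control mean, and control replicate 3 (blue triangle) is on the same side as the 3 Ni libraries for Itga11, Itga5, Itgb1, Itgb5, Itgb2, Itgam and Itgax.

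Among the stromal subunits the collagen receptor chain Itga11 had the largest log2 fold change. Integrin α11 pairs with β1 and is a receptor for fibrillar collagen on fibroblasts and osteogenic cells. It was at 114, 106 and 193 CPM in the controls and 191, 184 and 189 CPM in the Ni libraries. The 3 Ni libraries were tightly grouped, control replicates 1 and 2 were far below them and control replicate 3 was above all of them. The log2 fold change was 0.45 with a standard error of 0.21 (edgeR, unadjusted p 0.0633, adjusted p 0.394), and 0.77 without control replicate 3 (adjusted p 0.000183).

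Itga1, the other collagen receptor α chain, differed from Itga11 in both level and pattern. It was at 40.7, 34.7 and 45.2 CPM in the controls and 40.7, 35.5 and 49.2 CPM in the Ni libraries. The ranges covered each other almost fully, and the log2 fold change of 0.06 had a standard error of 0.14 (adjusted p 0.899 by edgeR). It was 0.15 without control replicate 3 (adjusted p 0.542), −0.04 without control replicate 2 and −0.08 without Ni replicate 3. The ratio of Itga11 to Itga1 in FPKM was 10.2, 11.1 and 15.5 in the controls and 17.02, 18.8 and 13.9 in the Ni libraries, which overlapped (exact two-sided permutation test, p = 0.2).

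Itga5 encodes the α chain of the main fibronectin receptor. It was at 91.0, 99.0 and 154 CPM in the controls and 141, 149 and 128 CPM in the Ni libraries. Control replicate 3 was again the highest library and the other controls the lowest. The log2 fold change was 0.28 with a standard error of 0.18 (adjusted p 0.535 by edgeR), and 0.56 without control replicate 3 (adjusted p 0.00250).

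Itgb1 encodes β1, the partner of α1, α5 and α11 and of several other α chains. It was at 1017, 943 and 1308 CPM in the controls and 1305, 1152 and 1311 CPM in the Ni libraries. Ni replicates 1 and 2 lay below control replicate 3, so the groups overlapped. The log2 fold change was 0.21 with a standard error of 0.14 (adjusted p 0.562 by edgeR), and 0.36 without control replicate 3 (adjusted p 0.0210).

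Itgav and its β partners Itgb5 and Itgb3 form the vitronectin receptors. Itgav was at 157, 139 and 181 CPM in the controls and 195, 157 and 193 CPM in the Ni libraries, with a log2 fold change of 0.19 and a standard error of 0.13 (adjusted p 0.529 by edgeR). Ni replicate 2 lay at the level of control replicate 1, and the adjusted p stayed above the threshold without control replicate 3 (log2 fold change 0.30, adjusted p 0.0923). Itgb5 was at 292, 322 and 320 CPM in the controls and 365, 352 and 330 CPM in the Ni libraries.

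Itgb5 was the only stromal subunit whose groups did not overlap, the 3 Ni libraries lying above the 3 controls, a separation in that direction seen in 7.97% of all genes tested. Either direction together was seen in 14.7% of genes and in 2 of the 10 integrins, Itgb5 and Itgam. Its log2 fold change was 0.16 with a standard error of 0.10 (adjusted p 0.488 by edgeR), the smallest standard error of the 10. It moved little without control replicate 3, to 0.19 (adjusted p 0.204).

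Itgb3, the other β chain that pairs with αv in this set and the one characteristic of osteoclasts and platelets, was low. It was at 8.35, 7.36 and 7.79 CPM in the controls and 7.70, 9.77 and 7.83 CPM in the Ni libraries. Apart from Ni replicate 2 the libraries lay close together, and the log2 fold change was 0.11 with a standard error of 0.17 (adjusted p 0.829 by edgeR). It remained 0.11 without control replicate 3 (adjusted p 0.786) and was −0.01 without Ni replicate 2. In FPKM, Itgb5 exceeded Itgb3 by 58.1 to 78.7 times over the 6 libraries, with overlapping ratios in the groups.

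Control replicate 3 decided how many of the 10 genes were called. Without it, 6 of the 10 passed an adjusted p of 0.05, Itga11, Itga5, Itgb1 and Itgax as higher and Itgam and Itgb2 as lower in Ni, where 15.2% of all genes passed. Leaving out any other single library gave 0 of the 10. With no filter on low counts and all 6 libraries, 3 of the 10 passed, namely Itga11 (adjusted p 0.00618), Itgam (adjusted p 0.0346) and Itgb2 (adjusted p 0.00115), against 3.97% of all genes. Averaged over the 7 stromal subunits, log2 CPM relative to the control mean was −0.08, −0.16 and 0.24 in control replicates 1, 2 and 3 and 0.24, 0.19 and 0.24 in the Ni replicates. Averaged over the 3 leukocyte subunits it was −0.18, −0.14 and 0.32 in the controls and −0.01, −0.28 and 0.03 in the Ni replicates, so that control replicate 3, the highest library for Itgax, lay above all others. Averaged over Itgam and Itgb2 alone, a pair chosen after the values were seen, it was 0.15, 0.22 and −0.36 in the controls and −0.34, −0.50 and −0.51 in the Ni replicates. Control replicate 3 thus stood just above the Ni range for the stromal mean and inside it for this pair, though not for Itgam by itself. Over all 17 alternatives the adjusted p ranged from 0.000183 to 0.848 for Itga11, 0.00250 to 0.916 for Itga5, 0.0210 to 0.947 for Itgb1, 0.0923 to 0.934 for Itgav, 0.204 to 0.847 for Itgb5, 0.00838 to 0.831 for Itgam, 0.0102 to 0.988 for Itgax and 0.000235 to 0.831 for Itgb2.

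Stromal and osteoblast markers stand beside the stromal subunits. The 11 stromal markers, led by Cxcl12, summed to 2511 to 2825.5 CPM in controls and 2245 to 2384 CPM in Ni. Cxcl12 alone (log2 fold change −0.47) made up most of this sum in every library, so the lower sum in Ni follows that gene. Of the 10 markers tested, 8 had log2 fold changes above 0, and the median was 0.31. The 7 osteoblast markers, led by Col1a1, summed to 5650 to 11439 CPM in controls and 14789 to 20304 CPM in Ni, and within the controls the sum was highest in control replicate 3. No marker of either list was at 0 in every library. Col1a1 alone made up most of the osteoblast sum in every library. The osteoblast markers share genes, Col1a1 among them, with the matrix ligands below. On the FPKM scale the ratio of Itgb1 to Pdgfrb, a receptor of stromal cells, was 14.9 to 16.3 in controls and 13.96 to 17.02 in Ni (exact two-sided permutation test, p = 1.0). That of Itga11 to Pdgfrb was 1.43, 1.33 and 1.92 in the controls and 1.98, 1.77 and 1.88 in the Ni libraries. Pdgfrb was picked after values were seen, and its log2 fold change of 0.21 was close to that of Itgb1. The other stromal markers tested ran from −0.47 (Cxcl12) to 0.95 (Lum), so these ratios depend on the marker chosen. The part of these markers in the integrin levels was not tested.

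**Figure D3:**
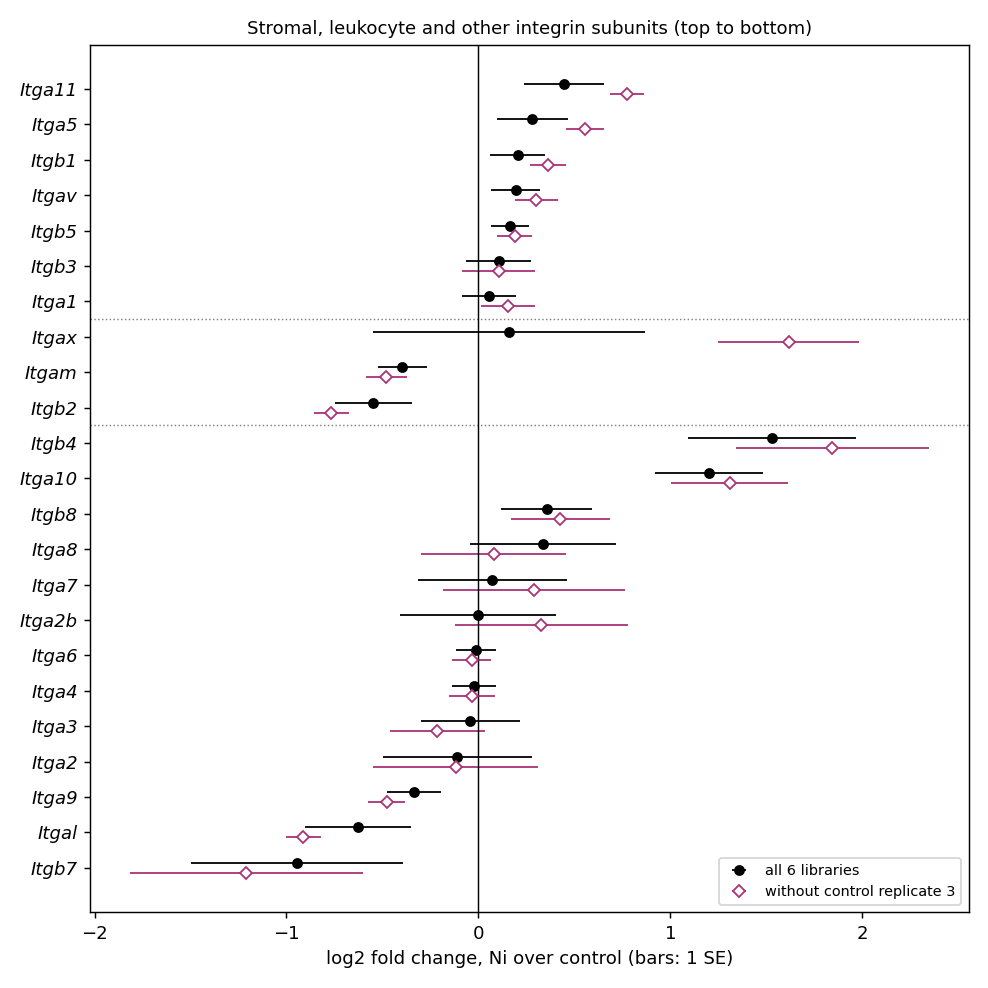
Log2 fold change, Ni over control, with 1 standard error, for the 7 stromal subunits, the 3 leukocyte subunits and the 13 other integrin subunits tested (top to bottom, separated by dotted lines). Filled points use all 6 libraries and open diamonds leave out control replicate 3; the latter moves Itgax from 0.16 to 1.62 and Itga11 from 0.45 to 0.77.

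Of the 16 other integrin subunits 13 passed the filter on low counts, and 3 of them had an unadjusted p under 0.05 (13.4% of all genes tested). Without control replicate 3, 4 passed an adjusted p of 0.05, against 15.2% of all genes: Itga10 (log2 fold change 1.31, adjusted p 0.0124), Itgb4 (1.84, adjusted p 0.0259), Itga9 (−0.48, adjusted p 0.00513) and Itgal (−0.91, adjusted p 0.000107). Itga10, the α10 collagen receptor chain of cartilage and bone surfaces, was at 4.04, 3.40 and 4.55 CPM in the controls and 9.60, 5.63 and 12.4 CPM in the Ni libraries. All Ni libraries lay above all controls, and its log2 fold change was 1.20 with a standard error of 0.28 and an adjusted p of 0.235 by edgeR. No member of the stromal set had a larger one. Gm42957 on the same strand covers 33.5% of its exon bases.

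Itgb4, the hemidesmosome β chain of epithelia, was the other subunit with higher values, at 0.44 to 0.959 CPM in controls and 1.41 to 2.87 CPM in Ni, with a log2 fold change of 1.53 (adjusted p 0.283 by edgeR). Itga9, which pairs with β1 and binds tenascin and osteopontin, was lower in Ni with a log2 fold change of −0.34 (adjusted p 0.351). Itgal, the αL chain that forms LFA-1 with β2, had the same pattern as Itgb2: 778, 879 and 376 CPM in the controls and 424, 470 and 423 CPM in the Ni libraries. Its log2 fold change was −0.63 with a standard error of 0.28 (unadjusted p 0.0539, adjusted p 0.377 by edgeR).

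The rest of the family gave smaller or less certain values. The β1 partners Itga6 (−0.01), Itga4 (−0.02), Itga3 (−0.04), Itga2 (−0.11), Itga7 (0.07) and Itga8 (0.34) had log2 fold changes within 1 standard error of 0. The same held for Itga2b, the platelet α chain, at 0.00, while Itgb8, a partner of αv, had 0.36 with a standard error of 0.24 and Itgb7 had −0.94 with a standard error of 0.55. The 13 had a median of −0.01 against 0.19 for the 7 stromal subunits. Itgad, Itgae and Itgb6 were not tested.

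The make-up of the α and β transcript pools shows the same values as shares. Of the summed FPKM of the 8 β genes, Itgb2 took 54.9%, 57.6% and 36.9% in the controls and 37.3%, 40.5% and 35.6% in the Ni libraries. Itgb1 took 33.7%, 30.3% and 49.0% in the controls and 47.2%, 43.7% and 49.7% in the Ni libraries. Control replicates 1 and 2 were thus the libraries in which β2 led, and in the other 4 β1 led.

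The share of Itgb5 did not overlap between groups, at 11.1% to 13.8% in controls and 14.4% to 15.4% in Ni. Those of Itga8, Itga10 and Itgb4 were also entirely higher in Ni. Shares within a pool depend on each other, so a separated share is no further result beside the level of its gene. Of the 18 α genes, Itgal took the largest share in 5 libraries and in control replicate 3 was second to Itgam, with 23.5% against 24.6%. Itgam took 24.2% to 24.6% of the α pool in controls and 19.3% to 23.6% in Ni, without overlap. Itga11 took 7.58%, 6.81% and 15.5% in the controls and 15.0%, 15.1% and 15.3% in the Ni libraries.

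Itgam followed Itgb2 only loosely: the ratio of Itgam to Itgb2 in FPKM was 0.178, 0.167 and 0.248 in the controls and 0.233, 0.175 and 0.223 in the Ni libraries, which overlapped (exact two-sided permutation test, p = 0.9). The ratio of Itgal to Itgb2 was 0.237 to 0.304 in controls and 0.255 to 0.280 in Ni, also with overlap. The ratio of Itgam to Itgb2 depends on the uncertain level of Itgam described above.

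**Figure D4:**
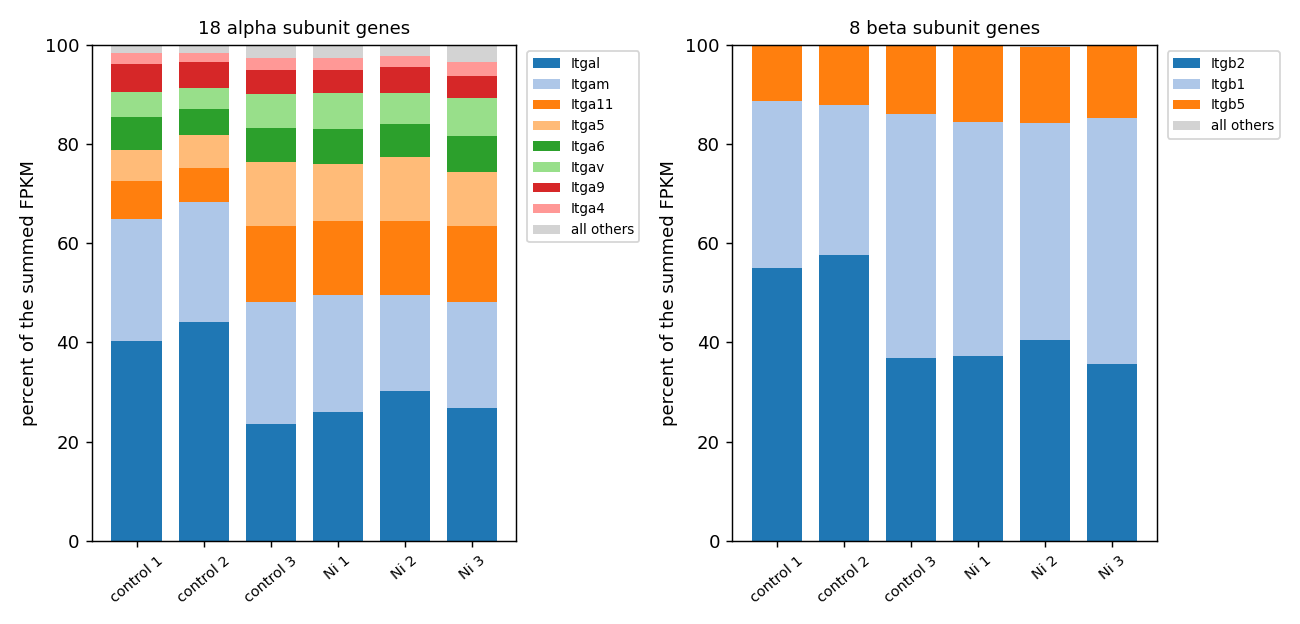
Share of each subunit in the summed FPKM of the 18 α genes (left) and 8 β genes (right) in each library, with genes averaging under 1% drawn together in grey. Itgb2 takes the largest β share in control replicates 1 and 2, and Itgb1 in control replicate 3 and the Ni libraries.

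The matrix ligands of the stromal subunits were mostly higher in Ni. Of 17 ligand genes 16 were tested, and 11 had an unadjusted p under 0.05, all higher in Ni, where 7.59% of all genes were. The median log2 fold change was 0.65, against 0.19 for the subunits, and none had an adjusted p under 0.05. Without control replicate 3 the median was 0.97 and 15 of the 16 passed an adjusted p of 0.05 (15.2% of all genes), with Tgfb1 among them as lower in Ni. Col1a2 (0.97) and Col1a1 (1.13), the chains of type I collagen and ligands of α1β1 and α11β1, had the smallest p, and both lay entirely higher in Ni (adjusted p 0.210 and 0.212 by edgeR). Spp1, osteopontin, a ligand of the αv receptors, was the most abundant at a mean of 4606 FPKM, with a log2 fold change of 0.63 (adjusted p 0.367). Vtn, vitronectin itself, was at 0 in 5 of the 6 libraries and at 0.126 CPM in control replicate 2.

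Of 8 ligand genes of the leukocyte subunits 5 were tested, with a median log2 fold change of −0.07. C3, the complement protein whose fragment iC3b binds αMβ2 and αXβ2, was the most abundant and had the smallest p: it was at 284, 291 and 204 CPM in the controls and 153, 163 and 145 CPM in the Ni libraries, without overlap (log2 fold change −0.76, unadjusted p 0.00028, adjusted p 0.208 by edgeR). Icam1, the cell surface ligand of β2 integrins, was at 129, 143 and 77.2 CPM in the controls and 79.3, 85.7 and 79.2 CPM in the Ni libraries (log2 fold change −0.51, adjusted p 0.347). Icam1 thus had the pattern of Itgb2, with control replicate 3 among the Ni libraries, whereas C3 did not. The list's median was 0.03 without control replicate 3, and 3 of the 5 then passed an adjusted p of 0.05, against 15.2% of all genes: C3 (log2 fold change −0.90) and Icam1 (−0.73) as lower and Jam3 (0.91) as higher in Ni. Gm48796 on the opposite strand overlaps 36.2% of the exon bases of Jam3, and Gm47079 overlaps 11.7% of those of Icam1. With the strand setting not given, the levels of both are uncertain. The fibrinogen chains Fgb and Fgg were at 0 in every library.

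The proteins that hold integrin tails to actin come in forms typical of blood cells and of stromal cells. Kindlin-3 (Fermt3), γ-parvin (Parvg) and PYK2 (Ptk2b), the blood-cell forms, had log2 fold changes of −0.46, −0.41 and −0.24, each with an unadjusted p under 0.05 and none with an adjusted p under 0.05. Their stromal counterparts kindlin-2 (Fermt2), α-parvin (Parva) and FAK (Ptk2) had 0.55, 0.35 and 0.20, of which only Parva had an unadjusted p under 0.05. Fermt3 was at 472, 526 and 295 CPM in the controls and 299, 360 and 279 CPM in the Ni libraries, and Fermt2 at 56.2, 58.5 and 106 CPM in the controls and 119, 93.7 and 111 CPM in the Ni libraries, both with control replicate 3 in the Ni range.

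Over the whole list of 21 tail partners, 20 were tested, of which 8 had an unadjusted p under 0.05 (5 of them higher and 3 lower in Ni, where 7.59% of all genes were higher and 5.83% lower), and the median log2 fold change was 0.09. Without control replicate 3 the median was 0.12 and 12 of the 20 passed an adjusted p of 0.05 (15.2% of all genes), among them Fermt3, Parvg, Ptk2b, Fermt2 and Parva but not Ptk2. Fermt3 was the most abundant at a mean of 142.9 FPKM. Ilk, the integrin-linked kinase, had the smallest p, at 0.692 to 1.08 CPM in controls and 1.55 to 2.76 CPM in Ni (log2 fold change 1.39, adjusted p 0.268 by edgeR), and 1.61 without control replicate 3 (adjusted p 0.0241). Genes on the opposite strand, Taf10 and Rrp8, overlap 89.7% of the exon bases of Ilk, and the library kit named in the labels is not stated to keep strand, so this level is uncertain. Fermt1, the epithelial kindlin, was at 0 in every library.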

How the data were processed

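RNA from 3 control and 3 Ni cultures was sequenced by the authors, who deposited whole-number read counts per gene without normalization, and FPKM values of the same genes. The FPKM equalled the deposited counts divided by gene length and by 1 factor per library (largest relative deviation 3.29e-07), and served for comparing genes. The aligner, counting tool and strand setting are not given in the sources used here. GRCm38 is the build in the submitters' processing notes, and gene coordinates in the files equal those of GENCODE M21 for all 10 integrins. The labels and the methods give different dexamethasone concentrations.

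Genes passing filterByExpr (14624) were scaled by TMM factors and entered the quasi-likelihood test of edgeR 4.0.16 (R 4.3.3; glmQLFit, robust; prior count 0.125 for fold changes) with Benjamini-Hochberg adjustment over all genes tested. Standard errors are the unshrunk coefficient over the root of F. Overlap of groups was read on log2 CPM (prior count 2). Groups follow the sample labels. The alternatives were DESeq2 1.42.0 and limma 3.58.1 (on FPKM plus a pseudocount of 1 or of 0.1, as log2), beside other scalings and filters, a gene-length correction, a replicate block and each library left out. The fits were tested on simulated data. Totals of 16101033 to 18642504 counts set the depth, and precision at low counts (Itgax) is limited by counting error as well as by the 3 libraries. Within each group every pair of libraries differed beyond sampling noise (chi-square over its degrees of freedom, 4.56 to 47.8).

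All 10 integrins are named, with the other integrin subunits tested, the 2 genes of smallest p and the most abundant gene of each ligand or partner list, and Fermt3, Parvg and Ptk2b beside Fermt2, Parva and Ptk2; Vtn, the fibrinogen chains, Fermt1, Adgre1, Mrc1, Tgfb1, Jam3, the FPKM ratios and the sums' leading markers were picked after values were seen. The members and all lists were chosen with earlier results of these data known, so no list is independent evidence. Protein sequences were not used here, and some cell type markers are not reported here by name.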

Additional observations from a re-analysis of the deposited data

How the results depend on the processing

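Over 17 alternatives the median log2 fold change of the stromal subunits ran from 0.11 to 0.30, that of the leukocyte subunits from −0.49 to −0.31 and their difference from 0.45 to 0.78, none moving by more than the spread between replicates. The number of the 10 integrins past an adjusted p of 0.05 was 0, except 3 with no filter on low counts; with each library left out it ran from 0 to 6, the 6 being without control replicate 3. At an unadjusted p under 0.05 it was 4 with no filter and ran from 1 to 7 with each library left out. Over all genes, the count past an adjusted p of 0.05 was 257 by DESeq2, 1027 with no filter, 13 without Ni replicate 2 and 2283 without control replicate 3. Signs reversed for Itga1 without control replicate 2 (−0.04) or Ni replicate 3 (−0.077), for Itgb3 without Ni replicate 2 (−0.0098), and for Itgax without control replicate 1 (−0.24), control replicate 2 (−0.23) or Ni replicate 3 (−0.10). With each library left out, Itga1 ran from −0.077 to 0.16, Itgb3 from −0.0098 to 0.17 and Itgax from −0.24 to 1.62. The cause was not tested.

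Whether the replicate numbers pair the samples is not given in the sources used here. Same-numbered libraries had deviation correlations of 0.01, 0.26 and 0.14, which cannot settle it with 3 libraries per group. Under the replicate block the count of genes past an adjusted p of 0.05 was 315, and 203 with the gene-length trend also removed, of which 0 were among the 10 integrins in either fit. The 3 libraries per group and the low counts of Itgax limit what could be detected.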
